A study of Mus musculus with 151 samples.

Results

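Mitochondrial dynamics and quality control were followed through 10 genes, Mfn1, Mfn2, Opa1, Dnm1l, Fis1, Pink1, Ppargc1a, Sirt1, Sirt3 and Phb2, which were taken by name from each of 7 deposited count tables and make up 10 of the 35976 gene names that every table holds. RNA was sequenced from female mouse offspring of CF-1 mothers and B6/SJL fathers that were conceived by natural mating (Natural) or by in vitro fertilization (IVF). For IVF, eggs of CF-1 females superovulated with eCG and hCG were inseminated in HTF medium, grown to the blastocyst in KSOM medium with amino acids under 5% oxygen, and transferred to pseudopregnant CF-1 recipients. The Natural group had none of these steps, so superovulation, fertilization, culture and transfer cannot be told apart, and neither group carried an engineered allele. Ovaries were sampled at E18.5 (4 Natural, 6 IVF), 12 weeks (4 Natural, 5 IVF) and 39 weeks (5 Natural, 5 IVF), and the adult cohorts of both groups had been delivered by c-section and fostered to CF-1 dams. The methods name a later embryonic day for IVF than for natural deliveries in some passages, so the E18.5 groups may differ in gestational age. Primordial germ cells (PGCs, the fetal precursors of eggs) were sampled at E13.5 as libraries of 100 cells (4 Natural, 5 IVF). Single oocytes were taken after superovulation of the offspring at 12 weeks (36 Natural, 40 IVF) and 39 weeks (9 Natural, 10 IVF), and cumulus cells, the granulosa-derived cells that surround the egg, as libraries of about 100 cells at 12 weeks (5 Natural, 5 IVF). The 12-week oocytes were summed by the donor set in their library names, 5 sets in each group, and the sets served as replicates. Those 5 names begin with only 2 numbers in each group, so some sets may share an origin.

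Mitochondria fuse and divide, and the balance sets the shape of the network. Mfn1 and Mfn2, the mitofusins, join outer membranes, and Opa1 joins inner membranes and shapes cristae, whereas Dnm1l (also known as Drp1) is the dynamin-related GTPase that cuts the organelle and Fis1 is an outer membrane protein linked to its recruitment. Pink1 is the kinase that marks damaged mitochondria for removal by mitophagy, and Phb2 (prohibitin 2) is an inner membrane scaffold that also serves as a mitophagy receptor. Ppargc1a encodes PGC-1α, the coactivator that drives mitochondrial biogenesis, Sirt1 is a nuclear NAD-dependent deacetylase that acts on PGC-1α, and Sirt3 is the main deacetylase of the mitochondrial matrix. The egg supplies the embryo's mitochondria and carries them as small, rounded organelles, while steroid-making luteal cells of the ovary are rich in them.

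The members lie on 7 chromosomes of GRCm38 (RefSeq gene bounds, with strands and exons from GENCODE M21). The fusion genes are Mfn1 (chr3:32529443-32579225, plus strand), Mfn2 (chr4:147873586-147904909, minus strand) and Opa1 (chr16:29579281-29663127, plus strand). Dnm1l (chr16:16312228-16359038, minus strand) and Fis1 (chr5:136953275-136966234, plus strand) act in fission, and Pink1 (chr4:138313409-138326296, minus strand) and Phb2 (chr6:124712289-124716945, plus strand) in mitophagy. Ppargc1a (chr5:51454249-52115853, minus strand), Sirt1 (chr10:63319005-63339035, minus strand) and Sirt3 (chr7:140863663-140882309, minus strand) complete the set. Exons of opposite-strand genes cover 7% of Sirt3's exonic length through Ric8a and a further 5.73% through Psmd13, and at most 4.67% in Dnm1l, Phb2 and Sirt1. Whether reads were counted by strand is not given in the sources used here, so such reads cannot be told apart.

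Promoters are shown for the 4 members that were called between adult ages or rose most between fetal and adult ovaries, Mfn2, Opa1, Pink1 and Phb2. They come from RefSeq on GRCm38.p6 and run from 250 bases before to 50 bases after a listed start, 5′ to 3′ on the gene's strand. Capitals mark an NRF1 motif (GCGCA, then any base, then GCGC, the site of a factor that drives nuclear genes for mitochondria) or an ETS motif (CCGGAAG, the family that includes GABP), searched on both strands. The windows are Mfn2 chr4:147904612-147904911 (minus strand, 1 of its 3 listed starts), Opa1 chr16:29579084-29579383 (plus strand), Pink1 chr4:138326247-138326546 (minus strand) and Phb2 chr6:124712039-124712338 (plus strand).
Mfn2: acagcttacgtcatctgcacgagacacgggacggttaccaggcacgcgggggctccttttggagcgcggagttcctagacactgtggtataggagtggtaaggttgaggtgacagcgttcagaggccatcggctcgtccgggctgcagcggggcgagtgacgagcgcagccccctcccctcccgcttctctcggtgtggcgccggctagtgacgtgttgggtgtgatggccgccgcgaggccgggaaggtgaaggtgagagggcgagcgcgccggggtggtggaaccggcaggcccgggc
Opa1: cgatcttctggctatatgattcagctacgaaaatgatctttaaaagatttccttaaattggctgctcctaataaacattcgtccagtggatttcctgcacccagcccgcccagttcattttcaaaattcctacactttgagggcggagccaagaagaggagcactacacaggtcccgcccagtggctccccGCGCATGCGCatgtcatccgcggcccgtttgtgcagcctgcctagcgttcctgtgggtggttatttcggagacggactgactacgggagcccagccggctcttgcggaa
Pink1: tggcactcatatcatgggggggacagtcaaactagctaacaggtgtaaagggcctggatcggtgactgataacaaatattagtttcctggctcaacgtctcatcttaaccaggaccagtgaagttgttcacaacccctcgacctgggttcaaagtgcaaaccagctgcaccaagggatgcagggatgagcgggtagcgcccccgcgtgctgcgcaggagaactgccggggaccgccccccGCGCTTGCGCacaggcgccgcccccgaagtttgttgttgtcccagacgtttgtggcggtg
Phb2: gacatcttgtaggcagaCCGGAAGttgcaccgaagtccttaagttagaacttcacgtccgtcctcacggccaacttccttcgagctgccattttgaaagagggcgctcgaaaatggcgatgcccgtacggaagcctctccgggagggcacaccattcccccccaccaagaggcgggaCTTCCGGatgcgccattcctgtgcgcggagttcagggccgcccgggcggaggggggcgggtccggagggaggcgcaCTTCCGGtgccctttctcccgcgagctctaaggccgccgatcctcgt
The Opa1 and Pink1 windows each held 1 NRF1 match, and no window of the other 8 members did. An NRF1 match was present in 4.6% of the 32851 promoters listed. Phb2 held 3 ETS matches, and Mfn1, Dnm1l, Fis1 and Sirt3 held at least 1 in one of their windows, against 8.86% of all promoters. Sirt1 alone held an E-box (CACGTG, in 7.15% of promoters), and no member held the full CRE palindrome (TGACGTCA, in 1.79%). These are matches of letters in 15 windows and were not tested as binding sites.

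Library totals ran from 2532824 to 8675189 counts in the 100-cell libraries, from 2839022 to 43363799 in ovaries and from 19624072 to 58259515 in the summed oocyte sets. The germ cell list stood at 2404 to 7759 CPM (counts scaled to the depth of the library) in PGCs and the granulosa list at 1237 to 2410 CPM in cumulus cells. The oocyte list stood at 15193 to 30942 CPM in the 12-week oocyte sets and at 0.817 to 35.3 CPM in cumulus cells, and the granulosa list stood at 0.441 to 15.7 CPM in PGCs, with Fshr, Amh, Foxl2 and Has2 at 0. Other lists also had counts. The luteal or theca list stood at 19794 to 29127 CPM in Natural and 13632 to 37938 CPM in IVF cumulus libraries, above the granulosa list, with its gene Cyp17a1 at 0 in all of them. In Natural and IVF PGCs the oviduct epithelium list stood at 177 to 370.4 and 194 to 386 CPM and the endothelial list at 73.5 to 283 and 119.6 to 453 CPM. In ovaries, markers of other cells differed between the groups. At E18.5 the erythroid list stood at 604 to 1603 CPM in Natural and 1621 to 4637 CPM in IVF libraries, and the oocyte list at 143 to 468 and 8.27 to 122 CPM, without overlap and with Oosp1 of its 8 genes at 0. The germ cell list overlapped in the same ovaries, at 170 to 625 CPM in Natural and 169 to 382 CPM in IVF libraries. At 12 weeks the oviduct epithelium list stood at 3502 to 7791 CPM in Natural and 93.4 to 3124 CPM in IVF ovaries, and at 39 weeks it was 8898 CPM in IVF replicate 1 and at most 249 CPM in the other 9 libraries. In whole ovary, fewer cells of a type and less RNA per cell cannot be told apart, and the part of these markers in any difference below was not tested. One cumulus library labelled Natural (replicate 5) carries a library name of the IVF donor series, and 1 Natural ovary in the 39-week group (replicate 5) has a source label of 40 weeks.

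Per kilobase of exon, a scale that sets levels of different genes side by side, Phb2 stood highest or second among the members in all 7 Natural groups and Ppargc1a lowest. The length was that of all annotated exons of a gene, and whether the expressed transcripts have that length was not tested. In the fetal ovary the order of mean level ran Phb2 (55.8 CPM per kb), Fis1 (46.8), Pink1 (32.6), Dnm1l (19.7), Mfn2 (16.3), Opa1 (9.79), Mfn1 (9.37), Sirt1 (6.33), Sirt3 (2.73) and Ppargc1a (0.722). Neighbours in that order overlapped between libraries only for Phb2 with Fis1 and for Opa1 with Mfn1. In adult ovaries Pink1 stood beside Phb2, at 59.6 and 60.4 CPM per kb at 12 weeks and 73.0 and 56.4 at 39 weeks, with overlapping ranges at both ages.

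The oocyte had its own order. Dnm1l led at 26.8 CPM per kb in the 12-week Natural sets, with no overlap with Phb2 (11.0), followed by Mfn1 (10.1) and Opa1 (4.99). Fis1 (1.94), Sirt1 (1.91) and Mfn2 (1.56) overlapped one another, and Pink1 (0.557), Sirt3 (0.311) and Ppargc1a (0.0565) closed the order. Dnm1l also led in 39-week Natural oocytes at 46.6 CPM per kb, where all neighbours in the order overlapped. In PGCs and cumulus cells Phb2 led at 154 and 87.6 CPM per kb and Fis1 came second at 48.3 and 31.5. Each table was scaled on its own, so levels of 1 gene set across tables also carry that scaling.

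**Figure D1:**
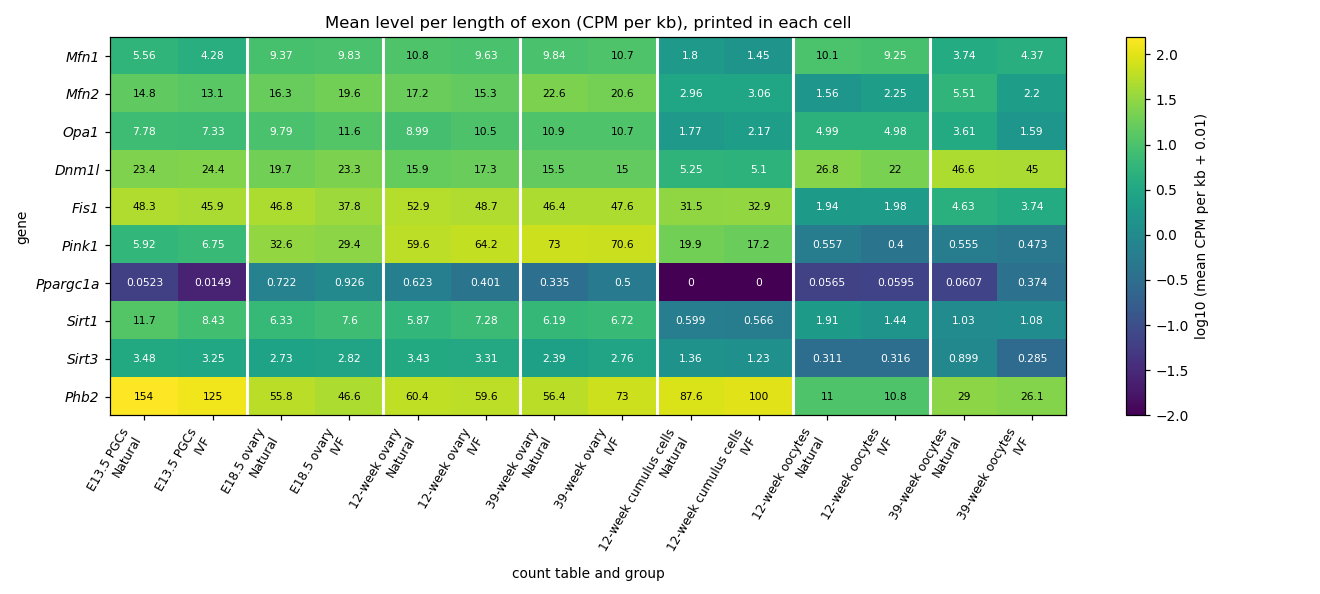
Mean level of each of the 10 genes (vertical axis) in the 14 groups (horizontal axis), in CPM per kilobase of exon, with the value printed in each cell and the colour on a log10 scale of the value plus 0.01. Dnm1l is the highest gene in the Natural oocyte columns of both ages (26.8 and 46.6 CPM per kb), and Phb2, Pink1 and Fis1 lead in ovaries.

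No member differed between IVF and Natural offspring past the threshold in any of the 6 comparisons that could be tested. Each comparison used edgeR's quasi-likelihood test with Benjamini-Hochberg adjustment over all genes tested, and a gene was called at an adjusted p below 0.05. At E18.5, 0 of 10 members were called, where 5.43% of all 16415 genes were, 2.67% higher and 2.75% lower in IVF (unadjusted p below 0.05 in 4 members and in 24.1% of genes). In the 12-week ovary 0 of 10 were called against 0.00567% of genes, with 2 members and 14.4% of genes below an unadjusted 0.05, and in the 39-week ovary 0 of 10 against 0.262% (0.0582% higher and 0.204% lower), with 0 members and 19.2% of genes. None of 9 members tested was called in PGCs (0% of genes called, 2.73% below an unadjusted 0.05, no member), none of 10 in 12-week oocytes (0.0277% called, 0.0208% higher and 0.00692% lower, 6.67% and 1 member below an unadjusted 0.05) and none of 9 in cumulus cells (0.00903% called, 5.97% and no member). DESeq2 also called 0 members in each of the 6. The groups did not overlap for 1 member at E18.5 and 1 in the 12-week ovary, described below, and for 0 members in the 39-week ovary, PGCs, 12-week oocytes and cumulus cells, where 5.11%, 1.18%, 1.39% and 0.731% of genes did not overlap. Without the 39-week IVF replicate 1, or without the doubtful cumulus library, the count stayed at 0, and without Natural E18.5 replicate 1 it was 2 (Fis1 and Phb2). That last fit called 1973 genes in all, against 891 with every E18.5 library. The study's methods give the ovaries as separate animals and name different litters. They also allow up to 2 littermates per litter in adult cohorts, so some adult ovaries may share a litter. Nothing says that the PGC and cumulus libraries or the oocyte sets are separate animals. Their p-values measure the spread between libraries or sets, which may be technical.

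**Figure D2:**
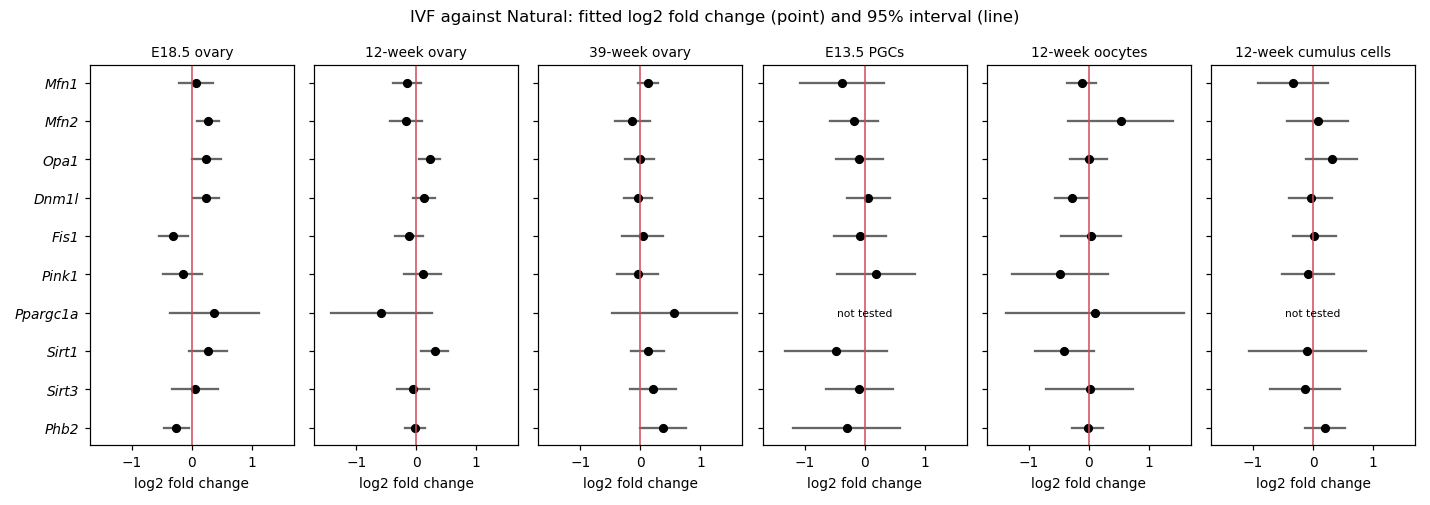
Fitted log2 fold change of IVF against Natural (horizontal axis, points) with its 95% interval (lines) for the 10 genes in each of 6 sample types, from edgeR. The intervals exclude 0 for Mfn2, Dnm1l, Fis1 and Phb2 at E18.5, Opa1 and Sirt1 at 12 weeks and Dnm1l in 12-week oocytes, all with an adjusted p of 0.05 or above, and Ppargc1a was not tested in PGCs and cumulus cells.

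Among the fusion genes, Mfn2 had the clearest separation, at E18.5. Its level was 89.2, 78.2, 82.8 and 87.9 CPM in the 4 Natural ovaries and 94.9 CPM at the lowest, 101 at the median and 108 at the highest in the 6 IVF ovaries. All IVF libraries lay above all Natural ones, as 8.61% of all genes did in either direction. The fitted log2 fold change was 0.27 (95% interval 0.078 to 0.46, edgeR unadjusted p = 0.00919, adjusted p = 0.0890). Later in life the groups overlapped. At 12 weeks Mfn2 was 89.7, 90.4, 85.5 and 92.5 CPM in Natural and 90.8, 80.3, 62.1, 69.7 and 94.4 CPM in IVF ovaries, and 3 of the 5 IVF libraries lay below the whole narrow Natural range (log2 fold change -0.17, 95% interval -0.44 to 0.10, edgeR adjusted p = 0.540). IVF replicates 3 and 4 (62.1 and 69.7 CPM) had the fewest counts of that age, 9731457 and 2839022, and the part of depth was not tested. At 39 weeks Mfn2 was 127, 100.3, 141, 90.0 and 129 CPM in Natural and 115, 91.6, 114, 109 and 105 CPM in IVF ovaries, the latter within the Natural range (log2 fold change -0.13, edgeR adjusted p = 0.591). The difference between the IVF effects at 12 weeks and E18.5 was -0.41 on the log2 scale (95% interval -0.74 to -0.080, edgeR interaction, unadjusted p = 0.0167, adjusted p = 0.247), and 0 of 10 members passed that test, which called 0.314% of 19724 genes (0.274% higher and 0.0406% lower).

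Opa1 separated at 12 weeks. Natural ovaries held 67.5, 63.9, 74.1 and 77.7 CPM and IVF ovaries 82.5, 78.5, 79.7, 84.5 and 88.1 CPM. The groups did not overlap, as for 6.09% of all genes at that age, and the log2 fold change was 0.22 (95% interval 0.044 to 0.40, edgeR unadjusted p = 0.0197, adjusted p = 0.260). At E18.5 Natural ovaries held 85.4, 75.6, 74.0 and 73.5 CPM and IVF ovaries 74.6 CPM at the lowest, 90.2 at the median and 107 at the highest, with 5 of 6 IVF libraries above every Natural one (log2 fold change 0.24, edgeR adjusted p = 0.209). At 39 weeks the fitted value was -0.013 (95% interval -0.26 to 0.23, edgeR adjusted p = 0.961). There the IVF ovaries held 63.6, 84.4, 94.8, 85.4 and 94.99 CPM, and the lowest was replicate 1, the library with the high oviduct markers. Mfn1 gave fitted values of 0.069, -0.16 and 0.12 in ovaries of E18.5, 12 and 39 weeks (edgeR adjusted p = 0.795, 0.502 and 0.389). Its 39-week IVF levels were 75.8, 62.3, 64.3, 63.2 and 62.0 CPM against 57.6 to 63.0 CPM in Natural ovaries, with replicate 1 again apart, this time highest.

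**Figure D3:**
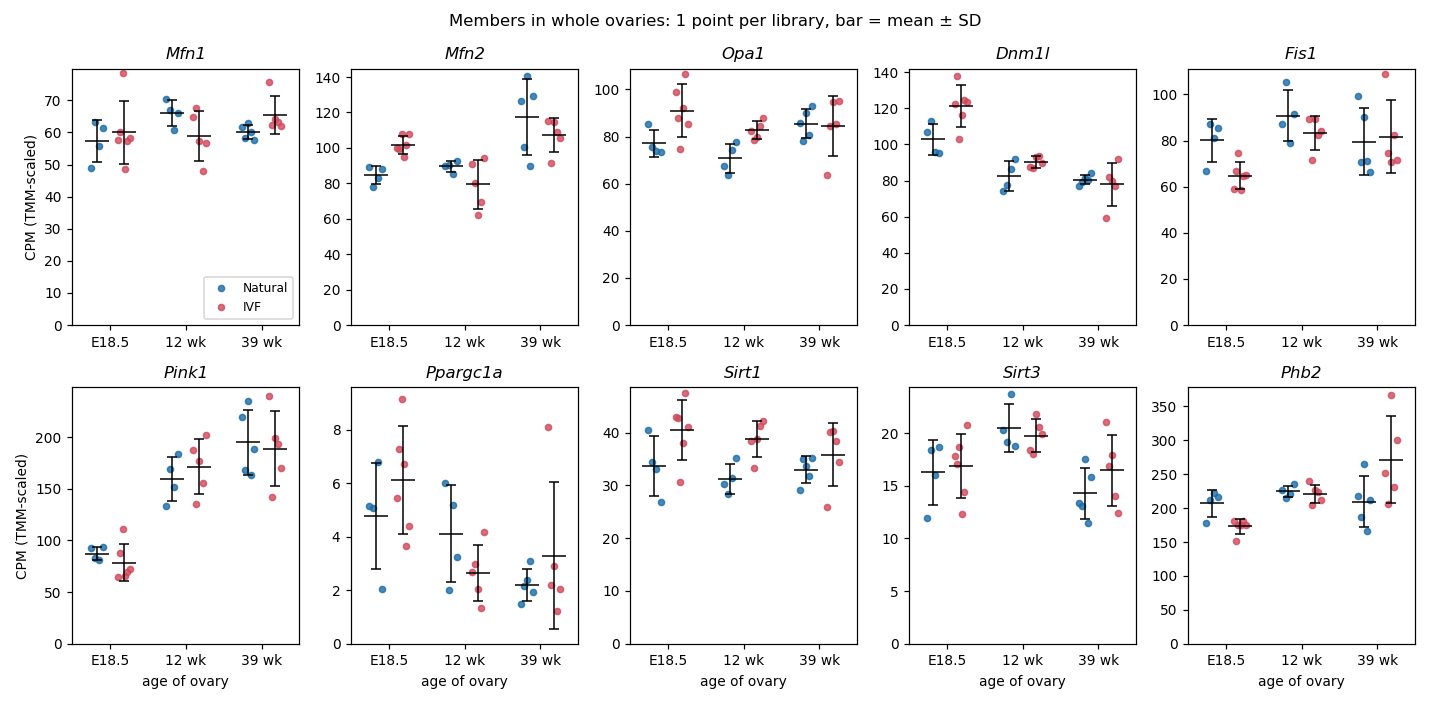
Level of each gene in whole ovaries (vertical axis, CPM scaled by TMM within each age) at E18.5, 12 and 39 weeks (horizontal axis), Natural in blue and IVF in red, each point a library and each bar the mean ± SD. At E18.5 every IVF library lies above every Natural library for Mfn2, and Pink1 is higher at both adult ages than at E18.5 in both groups.

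In the fission pair, neither Dnm1l nor Fis1 passed the threshold at E18.5, and most IVF libraries lay above the Natural ones for Dnm1l and below them for Fis1. Dnm1l was 107, 113, 95.8 and 95.1 CPM in Natural and 103 CPM at the lowest, 123 at the median and 138 at the highest in IVF ovaries, with 5 of 6 IVF libraries above every Natural one (log2 fold change 0.24, 95% interval 0.018 to 0.46, edgeR unadjusted p = 0.0360, adjusted p = 0.175). Fis1 was 66.8, 87.3, 81.1 and 85.6 CPM in Natural and 58.4 CPM at the lowest, 65.0 at the median and 74.8 at the highest in IVF ovaries, with 5 of 6 IVF libraries below every Natural one. Its fitted value was -0.31 (95% interval -0.54 to -0.071, edgeR unadjusted p = 0.0145, adjusted p = 0.110), and without Natural replicate 1, the lowest Natural library, it was -0.39 and passed the threshold (adjusted p = 0.0294). That fit called 1973 genes, against 891 with all libraries. Within each library, the per-kb ratio of Dnm1l to Fis1 ran from 0.366 to 0.527 in Natural and from 0.454 to 0.682 in IVF fetal ovaries, and the ranges overlapped.

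Neither fission gene separated in adult ovaries. Dnm1l was 74.0, 77.6, 86.4 and 92.0 CPM in Natural and 87.3, 87.1, 93.1, 93.7 and 89.7 CPM in IVF ovaries at 12 weeks (log2 fold change 0.13, edgeR adjusted p = 0.495). Of the 4 Natural libraries, 3 lay below the IVF range and 1 within it. Fis1 gave -0.12 at 12 weeks and 0.037 at 39 weeks and Dnm1l -0.045 at 39 weeks (edgeR adjusted p = 0.604, 0.914 and 0.843). In the 39-week IVF ovaries replicate 1 held the lowest Dnm1l (59.0 CPM, the others 77.0 to 91.8) and the highest Fis1 (109 CPM, the others 70.8 to 82.6).

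Of the mitophagy members, Phb2 came closest to a difference, at E18.5. It was 178, 213, 222 and 217 CPM in Natural and 152 CPM at the lowest, 175 at the median and 181 at the highest in IVF libraries, 4 of which lay below every Natural one. The log2 fold change was -0.26 (95% interval -0.46 to -0.055, edgeR unadjusted p = 0.0168, adjusted p = 0.119), and -0.33 without Natural replicate 1 (adjusted p = 0.0307), the Natural library nearest the IVF ones. Without that library 1973 genes were called, against 891 with all libraries. Levels at 12 weeks overlapped, 215 to 236 CPM in Natural and 205 to 239 CPM in IVF (log2 fold change -0.021, 95% interval -0.19 to 0.15). By 39 weeks the values were 218, 187, 266, 166 and 212 CPM in Natural and 252, 206, 368, 231 and 301 CPM in IVF ovaries. Only IVF replicates 3 and 5 lay above the whole Natural range, and the fitted value was 0.37 (95% interval -0.013 to 0.76, edgeR adjusted p = 0.273). The IVF effect at 39 weeks minus that at 12 weeks was 0.39 for Phb2 (edgeR interaction, unadjusted p = 0.0321, adjusted p = 0.195), and no member passed this test, which called 2.71% of genes (1.96% higher and 0.750% lower).

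Pink1 overlapped between the groups at every ovarian age. At E18.5 it was 92.3, 82.6, 80.7 and 93.4 CPM in Natural and 64.7 CPM at the lowest, 70.8 at the median and 111 at the highest in IVF libraries. Of the 6 IVF libraries, 4 lay below all Natural ones and replicates 2 and 3 did not (log2 fold change -0.15, edgeR adjusted p = 0.571). The fitted values were 0.11 at 12 weeks and -0.048 at 39 weeks (edgeR adjusted p = 0.747 and 0.886), with 95% intervals of -0.20 to 0.41 and -0.39 to 0.29.

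Among the biogenesis and deacetylase genes, Sirt1 came closest to a difference, at 12 weeks. Natural ovaries held 30.2, 28.4, 31.3 and 35.2 CPM and IVF ovaries 38.5, 33.3, 38.8, 41.3 and 42.2 CPM, and 4 of 5 IVF libraries lay above every Natural one. The log2 fold change was 0.31 (95% interval 0.079 to 0.54, edgeR unadjusted p = 0.0134, adjusted p = 0.238). It was 0.26 at E18.5 and 0.12 at 39 weeks, neither called (edgeR adjusted p = 0.285 and 0.618). Sirt3 gave 0.050, -0.057 and 0.21 at E18.5, 12 and 39 weeks (edgeR adjusted p = 0.894, 0.862 and 0.530), the last with IVF replicate 1 highest at 21.1 CPM against 12.4 to 18.0 CPM in the other IVF ovaries.

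Ppargc1a was the scarcest member in ovaries, and single libraries moved it most. At 39 weeks it was 1.48, 2.16, 2.39, 3.09 and 1.92 CPM in Natural and 8.10, 2.18, 2.92, 1.23 and 2.05 CPM in IVF ovaries. IVF replicate 1 stood alone, and the fitted log2 fold change of 0.57 (edgeR adjusted p = 0.521) became -0.079 without it. At E18.5 and 12 weeks the fitted values were 0.37 and -0.58 (edgeR adjusted p = 0.537 and 0.500), with 95% intervals of -0.36 to 1.11 and -1.43 to 0.26 that left changes of either sign possible.

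Across the 10 members the median fitted log2 fold change of IVF against Natural was 0.15 in the E18.5 ovary, -0.039 in the 12-week and 0.078 in the 39-week ovary. Of the 10, 7 lay higher in IVF in the fetal ovary and then 4 and 6. The medians over all genes tested were 0.00021, 0.0089 and 0.027.

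More members were called between ages than between conception groups, and so were more genes in all. From E18.5 to 12 weeks 49.7% of genes were called in Natural and 59.0% in IVF ovaries, and from 12 to 39 weeks 21.6% and 6.19%. Between conception groups 5.43%, 0.00567% and 0.262% were called in ovaries of E18.5, 12 and 39 weeks. The tests between ages came from 1 edgeR model over the 29 ovary libraries and 19724 genes, with scaling common to the 3 ages. Since each age was deposited as a table of its own, age and run cannot be told apart. The CPM printed beside them were scaled within each age, so overlaps between ages depend on that separate scaling. For example, mean Natural Mfn1 was 66.0 CPM at 12 and 60.1 CPM at 39 weeks, where the joint fit gave -0.0074. From E18.5 to 12 weeks, Pink1 rose in both groups. It was 92.3, 82.6, 80.7 and 93.4 CPM at E18.5 and 134, 169, 152 and 183 CPM at 12 weeks in Natural ovaries, with no overlap, for a log2 fold change of 0.95 (SE 0.17, edgeR adjusted p = 4.24e-05). In IVF ovaries it was 64.7 to 111 CPM at E18.5 and 187, 135, 177, 156 and 202 CPM at 12 weeks, again without overlap, with a log2 fold change of 1.23 (SE 0.14, edgeR adjusted p = 4.66e-08). The markers of luteal and theca cells moved between the same libraries, from 21.3 to 54.0 CPM summed at E18.5 to 10212 to 32360 CPM at 12 weeks, and their part in the rise was not tested.

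In Natural ovaries 3 of 10 members were called between E18.5 and 12 weeks, all higher (49.7% of genes were called, 25.3% higher and 24.3% lower). Besides Pink1 these were Mfn1 (0.29, edgeR adjusted p = 0.0284) and Sirt3 (0.42, adjusted p = 0.0376). Both calls were narrow. Mfn1 was not called without Natural E18.5 replicate 1 (0.26) or 3 (0.27), or without 12-week replicate 1 (0.26) or 4 (0.25). Sirt3 was not called without E18.5 replicate 1 (0.33) or 3 (0.41), or without 12-week replicate 1 (0.43), 3 (0.34) or 4 (0.42), with adjusted p from 0.0560 to 0.122. Dnm1l gave -0.23 (edgeR adjusted p = 0.0808) and was called, at -0.33, without Natural 12-week replicate 4 (adjusted p = 0.0302).

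In IVF ovaries 7 of 10 members were called over the same interval, 4 higher and 3 lower (59.0% of genes were called, 30.8% higher and 28.2% lower). Fis1 was 58.4 CPM at the lowest, 65.0 at the median and 74.8 at the highest at E18.5 and 89.5, 71.4, 89.5, 82.5 and 84.0 CPM at 12 weeks, with a log2 fold change of 0.47 (SE 0.11, edgeR adjusted p = 6.25e-04). Phb2 was 152 CPM at the lowest, 175 at the median and 181 at the highest at E18.5 and 239, 205, 227, 224 and 212 CPM at 12 weeks, with no overlap, and a log2 fold change of 0.46 (SE 0.11, adjusted p = 0.00115). Dnm1l fell, from 103 CPM at the lowest, 123 at the median and 138 at the highest to 87.1 to 93.7 CPM, again with no overlap (log2 fold change -0.32, SE 0.096, adjusted p = 0.00561). The calls for Pink1, Fis1, Phb2 and Dnm1l in IVF ovaries held in each fit that left out 1 library.

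The remaining 3 IVF calls were less firm. Mfn2 was called lower (-0.25, edgeR adjusted p = 0.0451) and lost the call in 8 of the 11 fits that left out 1 library, those of E18.5 replicates 1, 2, 3, 5 and 6 and of 12-week replicates 2, 3 and 4, in which it ran from -0.26 to -0.16. Ppargc1a was called lower (-1.06, adjusted p = 0.0260), but not without E18.5 replicate 3 (-0.91) or 12-week replicates 3 (-0.98) or 4 (-0.89). Its levels were 3.65 CPM at the lowest, 6.07 at the median and 9.15 at the highest at E18.5 and 2.66, 2.99, 2.05, 1.35 and 4.16 CPM at 12 weeks, so only the highest 12-week library reached into the fetal range. Sirt3 was called higher (0.33, adjusted p = 0.0493) and lost the call without E18.5 replicates 2 (0.33), 4 (0.26) or 5 (0.32) and without 12-week replicates 1 (0.35), 3 (0.29), 4 (0.36) or 5 (0.33). That Fis1, Phb2, Dnm1l, Mfn2 and Ppargc1a were called in IVF ovaries and not in Natural ones does not show a difference between the groups, since the test of the difference itself called no member, with unadjusted p below 0.05 for Mfn2 alone.

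From 12 to 39 weeks the fusion genes Mfn2 and Opa1 rose in Natural ovaries, the 2 of 10 members called there (21.6% of genes were called, 10.0% higher and 11.6% lower). Mfn2 was 89.7, 90.4, 85.5 and 92.5 CPM at 12 weeks and 127, 100.3, 141, 90.0 and 129 CPM at 39 weeks. By CPM scaled within each age, 4 of the 5 older libraries lay above all the younger ones (log2 fold change 0.52, SE 0.12, edgeR adjusted p = 0.00312). Opa1 was 67.5, 63.9, 74.1 and 77.7 CPM and then 85.7, 77.9, 89.8, 80.8 and 93.0 CPM, without overlap (log2 fold change 0.40, SE 0.11, edgeR adjusted p = 0.0131). Its call was lost without Natural 12-week replicate 2 (0.35, adjusted p = 0.0511), the lowest Natural library. Pink1 (0.42, adjusted p = 0.0603) and Sirt3 (-0.40, adjusted p = 0.0708) were not called. Pink1 was called without 12-week replicate 4 (0.53) or 39-week replicate 4 (0.47), and Sirt3 without 39-week replicate 3 (-0.48). Over the same interval the summed oviduct epithelium list went from 3502 to 7791 to 74.7 to 249 CPM and the luteal or theca list from 12204 to 24458 to 20025 to 32953 CPM, and their part in these calls was not tested.

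Mfn2 also rose in IVF ovaries between 12 and 39 weeks, where 2 of 10 members were called, both higher (6.19% of genes were called, 4.23% higher and 1.96% lower). It was 90.8, 80.3, 62.1, 69.7 and 94.4 CPM at 12 weeks and 115, 91.6, 114, 109 and 105 CPM at 39 weeks, with a log2 fold change of 0.55 (SE 0.11, edgeR adjusted p = 0.00490), and the Mfn2 calls of both groups held in every fit that left out 1 library. Phb2 was 239, 205, 227, 224 and 212 CPM and then 252, 206, 368, 231 and 301 CPM (log2 fold change 0.42, SE 0.12, adjusted p = 0.0359). The Phb2 call was lost without 12-week replicates 2 (0.39), 3 (0.43), 4 (0.41) or 5 (0.40) or 39-week replicates 3 (0.28) or 5 (0.37). In IVF ovaries the oviduct epithelium list stood at 93.4 to 3124 CPM at 12 weeks and 69.1 to 8898 CPM at 39 weeks, and the luteal or theca list at 10212 to 32360.1 and 11208 to 24742 CPM. The 2 age intervals share their 12-week libraries in each group, so their values are not independent.

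**Figure D4:**
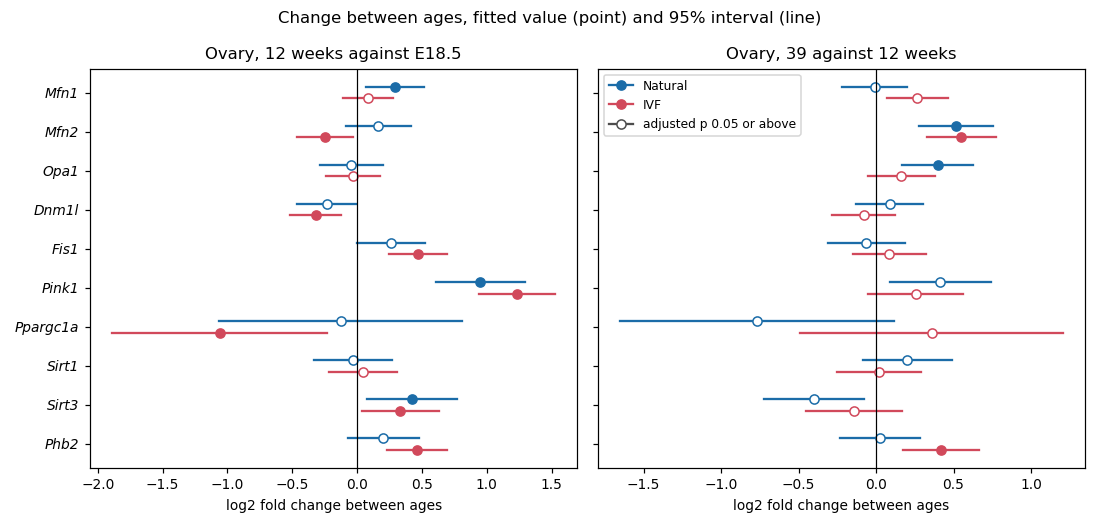
Fitted log2 fold change between ages (horizontal axis, points) with its 95% interval (lines) for the 10 genes in Natural (blue) and IVF (red) ovaries, 12 weeks against E18.5 on the left and 39 against 12 weeks on the right, with filled points at an edgeR adjusted p below 0.05. Pink1 is filled in both groups on the left at 0.95 and 1.23, and Mfn2 in both groups on the right at 0.52 and 0.55.

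The fetal germ cells showed wide spread within groups. In PGCs Sirt1 was 29.3, 111, 53.9 and 54.9 CPM in Natural and 26.8, 69.1, 65.4, 31.2 and 32.1 CPM in IVF libraries (log2 fold change -0.47, 95% interval -1.32 to 0.37, edgeR adjusted p = 1.000). Mfn1 was 32.5, 60.04, 20.9 and 22.5 CPM in Natural and 27.6, 28.6, 20.5, 19.7 and 34.6 CPM in IVF (log2 fold change -0.38, 95% interval -1.09 to 0.32). Natural replicate 2 held the highest Sirt1 and Mfn1 and, with 813, 222, 721 and 537 CPM across the Natural libraries, the lowest Phb2. IVF libraries spanned 269 to 765 CPM for Phb2 (log2 fold change -0.30, edgeR adjusted p = 1.000). Mfn2 varied little among Natural libraries, at 74.2 to 79.5 CPM in Natural and 53.5 to 84.7 CPM in IVF (log2 fold change -0.18, 95% interval -0.58 to 0.22). The remaining fitted values were -0.086 for Opa1, 0.060 for Dnm1l, -0.076 for Fis1, 0.19 for Pink1 and -0.090 for Sirt3. Ppargc1a was too scarce to test, with 0 to 9 counts a library in Natural and 0 to 2 in IVF PGCs.

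In the 12-week oocyte, Dnm1l was the one member with an unadjusted p below 0.05 between conception groups. The 5 Natural donor sets held 159, 155, 115, 125 and 143 CPM and the 5 IVF sets 131, 119, 116, 102 and 104 CPM. Of the IVF sets, 2 lay below all Natural sets and the others within their range (log2 fold change -0.29, 95% interval -0.57 to -0.0086, edgeR unadjusted p = 0.0442, adjusted p = 0.745). Sirt1 was 15.9, 6.75, 10.5, 9.41 and 8.46 CPM in Natural and 7.23, 9.32, 7.10, 7.85 and 6.86 CPM in IVF sets (log2 fold change -0.41, edgeR adjusted p = 0.808). The highest was Natural set 35_1, and the other 9 sets lay between 6.75 and 10.5 CPM. Mfn1 (-0.12), Opa1 (-0.0034), Phb2 (-0.019), Fis1 (0.034), Sirt3 (0.016), Ppargc1a (0.097) and Pink1 (-0.48) had edgeR adjusted p of 0.87 or more.

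Mfn2 in oocytes turned on 1 donor set. The Natural sets held 5.73, 9.66, 8.18, 8.70 and 8.14 CPM and the IVF sets 4.24, 5.72, 26.4, 11.6 and 10.5 CPM. IVF set 126_4 stood apart, and the fitted log2 fold change of 0.53 became -0.022 without it (edgeR adjusted p = 0.874 with it). Within that set the 8 oocytes ran from 2.89 to 90.7 CPM with a median of 33.4 CPM, and 4 of them exceeded 20 CPM. Another 2 oocytes of IVF set 127_2 and 4 of the 36 Natural oocytes did so. Depth moved with these values: all 4 IVF oocytes under 2000000 counts (55.8 to 90.7 CPM) and the 1 such Natural oocyte (20.2 CPM) were among them, as were 2 of the 36 deeper IVF and 3 of the 35 deeper Natural oocytes. Without the shallow oocytes the fitted log2 fold change was 0.32 (edgeR adjusted p = 0.933), and the part of depth in the high Mfn2 levels was not tested.

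Between single 12-week oocytes the members differed in spread. The coefficient of variation, the SD as a percentage of the mean, was lowest for Phb2 (23.4% in 36 Natural and 33.1% in 40 IVF oocytes), Mfn1 (27.7% and 35.4%) and Dnm1l (35.7% and 29.4%). Mfn2 varied far more, at 97.7% in Natural and 157% in IVF oocytes, around medians of 6.41 and 6.26 CPM, and at 100.2% and 175% in the 35 Natural and 36 IVF oocytes with at least 2000000 counts. Fis1 stood at 75.7% and 100.1%. Low members met the limit of counting: Ppargc1a was at 0 in 24 of 36 Natural and 22 of 40 IVF oocytes, and Pink1 in 7 and 11. Totals ranged from 839781 to 10879166 counts in Natural and 969774 to 10270378 in IVF oocytes, so a count of 0 bounds Ppargc1a less tightly in the shallow ones. The sets were read from the library names, the labels do not say that a set is 1 animal, and single oocytes were not treated as replicates.

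**Figure D5:**
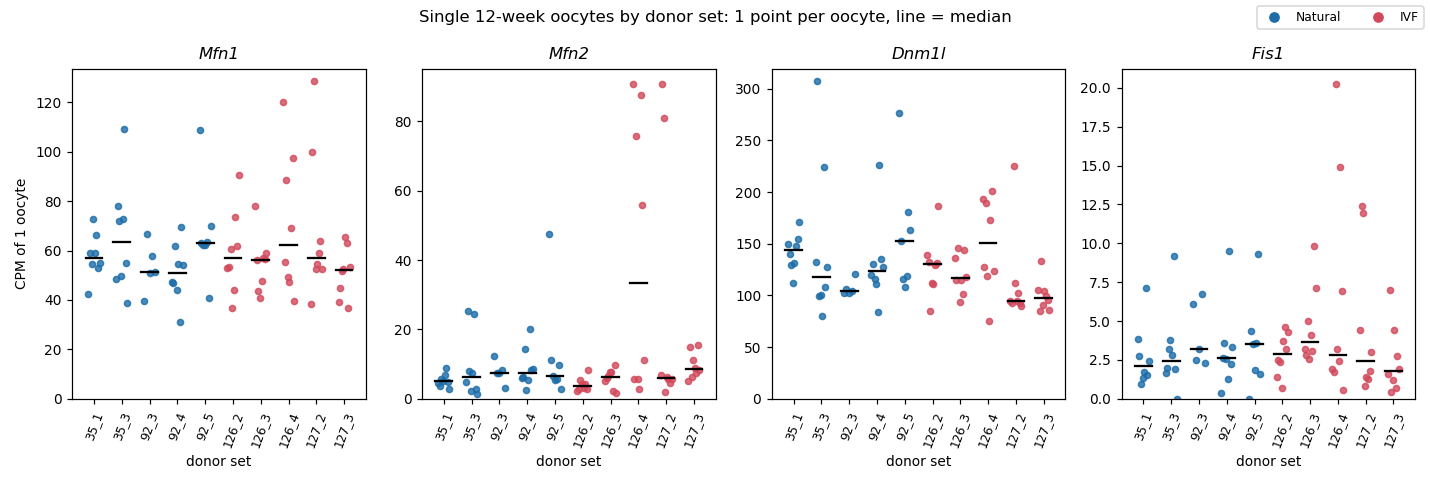
Level of Mfn1, Mfn2, Dnm1l and Fis1 (vertical axis, CPM) in each 12-week oocyte (points), by donor set along the horizontal axis, Natural in blue and IVF in red, with a line at the median of each set. For Mfn1 and Dnm1l most oocytes lie near the median of their set, while Mfn2 reaches 90.7 CPM in IVF sets 126_4 and 127_2 above set medians of 33.4 and 5.99 CPM.

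In cumulus cells the members overlapped between groups. Pink1 varied most among the better expressed genes, at 88.4, 99.6, 22.9, 28.6 and 26.0 CPM in Natural and 42.3, 22.9, 19.8, 71.5 and 73.6 CPM in IVF libraries. In each group 2 libraries stood well above the other 3. The fit included a term for the style of library name, numbered or by donor, which divides the libraries in the same way, and gave -0.088 (95% interval -0.52 to 0.34, edgeR adjusted p = 0.981). Opa1 was 8.19, 7.52, 19.2, 16.7 and 18.1 CPM in Natural and 23.3, 17.0, 23.9, 9.08 and 12.1 CPM in IVF (log2 fold change 0.31, adjusted p = 0.883), split along the same libraries in the opposite direction. Phb2 was 310.1, 274, 343, 304 and 398 CPM in Natural and 367, 438, 298, 393 and 366 CPM in IVF (log2 fold change 0.20, 95% interval -0.14 to 0.54). Summed immune markers ran from 71.5 to 2332 CPM in Natural and 148 to 4352 CPM in IVF libraries, and their part in these values was not tested. Ppargc1a had 0 counts in all 10 cumulus libraries.

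The 39-week oocytes allow no test, since the labels name no donor, and each group was treated as 1 pooled sample. The exact Poisson intervals cover only the counting error of independent counts. Mfn1 counts in Natural replicates 2, 3, 4 and 5 were all even (386, 200, 132 and 214), with 327 in replicate 1. Whether counts were independent was not tested, so the intervals may be too narrow even for counting error. Past a ratio of 1.5 in either direction lay 4 of 10 members, against 52.6% of the 12319 genes compared (21.2% higher and 31.4% lower in IVF). Mfn2 was 0.818 CPM at the lowest, 16.5 at the median and 86.9 at the highest of 9 Natural oocytes, and 0, 12.4 and 25.4 CPM in 10 IVF oocytes. The pooled IVF to Natural ratio was 0.3204 (0.303 to 0.339), whereas the ratio of the medians was 0.755. Opa1 spanned 7.28 to 78.9 CPM in Natural oocytes around a median of 21.4, and 6.48 to 15.5 CPM in IVF oocytes around 14.2. Its pooled ratio was 0.379 (0.359 to 0.401) and was 0.556 without Natural replicate 9. Natural replicates 6 and 9 had the fewest oocyte markers, 2894 and 6555 CPM in sum, against 20136 to 34887 CPM in the other 7 Natural and 25600.1 to 36525 CPM in the IVF oocytes, and they had the highest Mfn2 (86.9 and 65.2 CPM) and Opa1 (45.1 and 78.9 CPM). Without both, a choice made after seeing the data, the pooled ratio was 0.611 for Mfn2 and 0.679 for Opa1, the latter no longer past 1.5, and their part in the ratios over all oocytes was not tested. The summed granulosa list had a median of 29.7 CPM in Natural and 69.6 CPM in IVF oocytes.

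Sirt3 reached 14.1 CPM in Natural and 4.50 CPM in IVF 39-week oocytes, with medians of 3.44 and 1.19 CPM, 3 IVF oocytes at 0 and a pooled ratio of 0.398 (0.347 to 0.455). Ppargc1a had the highest ratio, 4.65 (3.40 to 6.49), from 45 counts in Natural and 347 in IVF oocytes. All 45 Natural counts came from replicate 3, and without IVF replicate 2 the ratio was 2.40. The other ratios were 1.23 for Mfn1, 0.951 for Dnm1l, 1.00 for Fis1, 0.707 for Pink1, 1.06 for Sirt1 and 1.00 for Phb2. The ratios of the medians were lower for Fis1 (0.630), Pink1 (0.362), Sirt1 (0.563) and Phb2 (0.811). By medians 5 members lay past 1.5, a count without Ppargc1a, whose median was 0 in Natural and 0.976 CPM in IVF oocytes. The share of all genes past 1.5 by medians was not computed, so that count has no background here. Without IVF replicate 8 the pooled ratio was 0.687 for Fis1 and 0.799 for Phb2. Without the 2 Natural oocytes of few oocyte markers it was 1.55 for Fis1, 1.29 for Pink1, 0.550 for Sirt3 and 3.33 for Ppargc1a. Dnm1l ran from 129 to 487 CPM in Natural and 79.4 to 424 CPM in IVF oocytes, so the spread within each group exceeded the difference between them. Erythroid markers reached 17653 CPM in a Natural and 24533 CPM in an IVF oocyte of this age, and their part in these levels was not tested.

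Between the Natural cell types, all 9 members tested differed between 12-week oocytes and PGCs, in an edgeR model of 15792 genes that called 76.8% of them (37.4% higher and 39.4% lower in oocytes). Mfn1 (2.46, SE 0.28), Dnm1l (1.82, SE 0.19) and Opa1 (0.99, SE 0.27) were higher in oocytes. Fis1 (-3.02), Phb2 (-2.16), Sirt3 (-1.84), Pink1 (-1.78), Mfn2 (-1.62) and Sirt1 (-0.996) were lower, Sirt1 only with Natural PGC replicate 2 in the fit (-0.50 without it, edgeR adjusted p = 0.183). The mitofusins lay in opposite directions, and so did the fission pair. With library totals in place of TMM the median of all genes moved from -0.17 to -1.87, Opa1 turned to -0.71 and Dnm1l to 0.11 (adjusted p = 0.623), while Mfn1 stayed higher at 0.70. Taken relative to the median of all genes, Opa1 was 1.16 and Dnm1l 1.99 higher under both scalings. The cell types came from separate tables, so cell type and run cannot be told apart.

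Against cumulus cells of the same age, 8 of 9 members were called in Natural oocytes (79.5% of genes were called, 41.9% higher and 37.6% lower). Mfn1 (3.20), Dnm1l (3.06), Sirt1 (2.38) and Opa1 (2.18) were higher in oocytes, and Pink1 (-4.40), Fis1 (-3.30), Phb2 (-2.29) and Sirt3 (-1.43) lower. Mfn2 gave -0.23 (95% interval -0.91 to 0.44, edgeR adjusted p = 0.523), and -0.98 with library totals (adjusted p = 0.0146), which moved the median of all genes from 0.13 to -0.55. Without the doubtful Natural cumulus library 8 members were called as well. Pink1 illustrates the gap, with 1.26, 1.12, 1.80, 1.91 and 1.35 CPM in the oocyte sets and 22.9 to 99.6 CPM in Natural cumulus libraries. Fis1 does as well, with 3.05, 3.09, 4.37, 2.68 and 3.45 CPM in oocyte sets and 33.0 to 76.9 CPM in cumulus cells. The oocyte fits of both cell-type comparisons share the same 5 Natural sets. Natural cumulus replicates 3 and 4 carry the set names 35_3 and 92_5 of the oocytes, and the fit treated them as independent of those sets. It also had no term for library name style.

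Ratios within a library avoid the scaling between tables. Per kilobase, Mfn1 exceeded Mfn2 by 5.53 to 9.59 times in the Natural and 1.79 to 12.5 times in the IVF 12-week oocyte sets. It lay below Mfn2 in every ovary, PGC and cumulus library, where the ratio was at most 0.950. Dnm1l exceeded Fis1 by 8.71 to 17.3 times in Natural and 8.93 to 13.9 times in IVF 12-week oocyte sets and by at least 2.13 times in each 39-week oocyte, and was at most 0.699 of Fis1 in every other library. In 39-week oocytes the Mfn1 to Mfn2 ratio ran from 0.268 to 21.5 in 9 Natural and from 0.507 to 32.8 in the 9 IVF oocytes with Mfn2 counts. These are single oocytes, and among single 12-week oocytes the ratio ran from 1.30 to 22.3 in Natural and from 0.669 to 29.9 in IVF, where the 3 below 1 were under 2000000 counts.

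Of the 60 other genes listed for fusion, fission, mitophagy, biogenesis, matrix quality control and transport, 59 were tested at E18.5, with 1 called higher and 2 called lower in IVF ovaries and a median log2 fold change of -0.054. That is 5.08% of the list, against 5.43% of all genes tested (2.67% higher and 2.75% lower). Ulk1, the kinase that starts autophagy, was 91.8 ± 7.79 CPM (SD, n = 4) in Natural and 123 ± 10.7 CPM (n = 6) in IVF ovaries (log2 fold change 0.42, edgeR adjusted p = 0.0314). Phb, the prohibitin that pairs with Phb2, was 60.3 ± 4.87 and 43.3 ± 4.06 CPM (log2 fold change -0.48, adjusted p = 0.0253). Bnip3, a mitophagy receptor induced by hypoxia, was 39.2 ± 3.96 and 22.0 ± 3.72 CPM (log2 fold change -0.83, adjusted p = 0.0129). None of the 3 overlapped between groups. The replicate block ended all 3 calls (Bnip3 -0.89, adjusted p = 0.201; Ulk1 0.35, adjusted p = 0.287; Phb -0.56, adjusted p = 0.204). The Bnip3 call held in every fit that left out 1 library, whereas that of Ulk1 was lost without Natural replicates 2 (0.45), 3 (0.35) or 4 (0.41) or IVF replicates 1 (0.43), 4 (0.42), 5 (0.42) or 6 (0.37), and that of Phb without Natural replicates 2 (-0.50), 3 (-0.44) or 4 (-0.46) or IVF replicates 2 (-0.45) or 4 (-0.47).

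In the 39-week ovary 1 of 59 genes was called, Optn, an autophagy receptor of the Pink1 pathway, lower in IVF at 20.5 ± 2.69 against 33.9 ± 1.79 CPM (n = 5 each, log2 fold change -0.72, edgeR adjusted p = 0.0303). The groups did not overlap, and the call was lost without any of the 5 Natural replicates or without IVF replicates 2, 4 or 5, with fitted values of -0.74 to -0.69 and adjusted p from 0.0536 to 0.0860. At 12 weeks Optn lay on the other side, 13.1 to 16.2 CPM in Natural and 18.0 to 27.5 CPM in IVF ovaries, without a call (log2 fold change 0.55, adjusted p = 0.173). No list gene was called among 60 tested in the 12-week ovary, 58 in PGCs, 56 in 12-week oocytes and 56 in cumulus cells. The medians there were 0.088, -0.016, 0.064 and -0.052 on the log2 scale. With age, 29 of the 60 were called higher and 6 lower at 12 weeks than at E18.5 in Natural ovaries, 58.3% of the list against 49.7% of all genes (25.3% higher and 24.3% lower). In IVF ovaries 37 were higher and 8 lower, 75% against 59.0% (30.8% higher and 28.2% lower). From 12 to 39 weeks 7 were higher and 0 lower in Natural ovaries, 11.7% against 21.6%, and 3 and 0 in IVF ovaries, 5% against 6.19%.

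Each member's pattern over the 14 groups was set against that of 13863 genes with at least 1 CPM in 7 or more groups, by Pearson's r of log2 mean CPM. Fis1 was most like Mtx1 (r = 0.996), a subunit of the outer membrane sorting machinery, and Smdt1 (0.996), a subunit of the mitochondrial calcium uniporter. Pink1 was most like Acaa2 (0.996), a mitochondrial enzyme of fatty acid oxidation, and Hps1 (0.995). Opa1 was followed by Pank2 (0.991) and Lmtk2 (0.988), Mfn2 by Rnf40 (0.987) and Pcif1 (0.986), Mfn1 by Phf3 (0.979) and Arih1 (0.978) and Dnm1l by Gfra4 (0.988) and Mettl3 (0.981). Sirt1 went with Rcbtb1 (0.987) and Inpp5f (0.987), Sirt3 with Armc6 (0.991) and Snrpc (0.990), Phb2 with Snx3 (0.980) and Dohh (0.979) and Ppargc1a with Senp5 (0.968) and Cdc26 (0.967). Among the members themselves the closest pair was Fis1 with Sirt3 (r = 0.950) and the most opposed Dnm1l with Pink1 (r = -0.565), over the same 14 groups, which share tissue, library method and table in subsets.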

How the data were processed

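Gene counts were deposited by the authors in 7 tables, each with 35976 gene names and 143 libraries in all of the 151 series samples. Per the submitters' processing notes, reads were trimmed with Trimmomatic 0.32, aligned to mm10 with STAR 2.3.0e and counted with featureCounts 1.5.0, and the notes also name DESeq2. Ovary libraries were stranded mRNA-seq, and PGC, oocyte and cumulus libraries were made by a modified SMART-seq protocol. The strand setting of the counting is not given in the sources used here.

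Counts were tested as deposited with edgeR 4.0.16 (quasi-likelihood, TMM scaling, filterByExpr, Benjamini-Hochberg adjustment, called at an adjusted p below 0.05; R 4.3.3). CPM are TMM-scaled within each table, except in 39-week and single oocytes, where they are plain. Counts of 12-week oocytes were summed by donor set, and the cumulus fit had a term for library name style. Ages and cell types were compared in joint fits with joint scaling. The 39-week oocytes were pooled, with exact Poisson intervals at 95% and a ratio of 1.5 as the limit, and no test. Members were all described. Of the other listed pathway genes, up to 3 called higher and 3 called lower with the largest change were named in each IVF comparison, and for each member the 2 genes of highest Pearson r. The members and lists were chosen with earlier results of these data known.

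Alternatives were DESeq2 1.42.0, limma 3.58.1, other size factors, filters of no minimum or at least 10 counts, replicate blocks, only deeper oocytes and leaving out each library. Scaling by library totals, and leaving out 2 Natural 39-week oocytes with under 10000 CPM of summed oocyte markers, were added after seeing the data. The code was tested on simulated data. Cumulus libraries of 39 weeks and first-record copies of 12-week cumulus libraries were not used here. Depth is given with the results, and 1 Natural and 4 IVF single oocytes were under the total set for that alternative.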

Additional observations from a re-analysis of the deposited data

Results flagged for a closer look

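In 7 of 138 gene and group pairs of 4 to 10 libraries, 1 library's gap to its neighbour was large against the group's range by Dixon's criterion, and chance gives about 1 in 20. In 39-week IVF ovaries, replicate 1 was highest for Mfn1 (75.8 CPM, the next 64.3) and Ppargc1a (8.10 CPM, the next 2.92), the library with 8898 CPM of oviduct epithelium markers. In E18.5 IVF ovaries, replicate 2 was lowest for Phb2 (152 CPM, the next 175). The other 4 were single 39-week oocytes: Natural replicate 6 for Pink1 (4.89 CPM, the next 1.85), Natural replicate 3 for Ppargc1a (3.60 CPM, the others 0), IVF replicate 2 for Ppargc1a (13.3 CPM, the next 5.47) and IVF replicate 8 for Phb2 (218 CPM, the next 119).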

How the results depend on the processing

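The count of members called between IVF and Natural stayed at 0 under each alternative except in the fit without Natural E18.5 replicate 1, where it was 2. In that fit 1973 genes were called, against 891 in the main fit. With DESeq2, the genes called numbered 1870 for IVF against Natural at E18.5, 635 for IVF against Natural in the 12-week ovary, 1135 for IVF against Natural in the 39-week ovary, 54 for IVF against Natural in 12-week oocytes, 31 for IVF against Natural in cumulus cells, 2011 for IVF ovaries from 12 to 39 weeks, 322 for the IVF effect at 12 weeks minus E18.5 and 1531 for the IVF effect at 39 minus 12 weeks. Signs of the log2 fold change turned for Sirt3 -0.017 for IVF against Natural in 12-week oocytes, Sirt1 -0.0045 for IVF ovaries from E18.5 to 12 weeks and Opa1 -0.012 for the IVF effect at 12 weeks minus E18.5. With RLE size factors, the genes called numbered 29 for the IVF effect at 12 weeks minus E18.5. The sign turned for Sirt3 -0.012 for IVF against Natural in 12-week oocytes, Sirt1 -0.0023 for IVF ovaries from E18.5 to 12 weeks and Opa1 -0.011 for the IVF effect at 12 weeks minus E18.5. With library totals in place of TMM, an alternative added after seeing the data, the genes called numbered 70 for IVF against Natural in the 39-week ovary and 1 for the IVF effect at 12 weeks minus E18.5, and the members called numbered 1 for IVF ovaries from 12 to 39 weeks. Values of the other sign were Mfn1 0.011, Opa1 0.13 and Phb2 0.11 for IVF against Natural in 12-week oocytes, Dnm1l 0.016 for IVF against Natural in cumulus cells, Dnm1l -0.029 and Phb2 -0.10 for Natural ovaries from 12 to 39 weeks, Mfn1 -0.035 and Sirt1 -0.078 for IVF ovaries from E18.5 to 12 weeks, Fis1 -0.040 and Sirt1 -0.11 for IVF ovaries from 12 to 39 weeks, Opa1 -0.049 for the IVF effect at 12 weeks minus E18.5 and Opa1 -0.71 for oocytes against PGCs. With at least 10 counts in every library, the genes called numbered 0 for IVF against Natural in the 12-week ovary, 96 for IVF against Natural in the 39-week ovary, 2 for IVF against Natural in cumulus cells, 12 for the IVF effect at 12 weeks minus E18.5, 4981 for oocytes against PGCs and 5231 for oocytes against cumulus cells. Signs of the log2 fold change turned for Opa1 0.00050 for IVF against Natural in 12-week oocytes, Phb2 -0.0072 for Natural ovaries from 12 to 39 weeks, Sirt1 -0.0071 for IVF ovaries from E18.5 to 12 weeks, Sirt1 -0.00100 for IVF ovaries from 12 to 39 weeks and Opa1 -0.034 for the IVF effect at 12 weeks minus E18.5. With no filter on low counts, the genes called numbered 9 for IVF against Natural in the 12-week ovary, 28 for IVF against Natural in the 39-week ovary, 19 for IVF against Natural in 12-week oocytes and 104 for IVF against Natural in cumulus cells. The sign turned for Sirt3 -0.017 for IVF against Natural in 12-week oocytes. With the replicate block, the genes called numbered 2 for IVF against Natural at E18.5, 0 for IVF against Natural in the 12-week ovary, 26 for IVF against Natural in the 39-week ovary, 26 for IVF against Natural in cumulus cells, 0 for the IVF effect at 12 weeks minus E18.5 and 104 for the IVF effect at 39 minus 12 weeks. Values of the other sign were Mfn1 0.0099 and Phb2 -0.00058 for Natural ovaries from 12 to 39 weeks and Opa1 -0.0023 for the IVF effect at 12 weeks minus E18.5. With shallow oocytes left out, the sign turned for Fis1 -0.13 and Sirt3 -0.056 for IVF against Natural in 12-week oocytes. With limma on mean log2 CPM per donor set, the genes called numbered 2 for IVF against Natural in 12-week oocytes. The sign turned for Sirt3 -0.064 for IVF against Natural in 12-week oocytes. With no term for library name style, the genes called numbered 0 for IVF against Natural in cumulus cells. With the doubtful cumulus library treated as IVF, the genes called numbered 7 for IVF against Natural in cumulus cells. Signs of the log2 fold change turned for Dnm1l 0.046 and Sirt1 0.060 for IVF against Natural in cumulus cells. With library totals, 62.5% of the calls at E18.5 were higher in IVF against 49.3% under TMM, 29.5% against 46.4% for Natural and 27.8% against 68.4% for IVF ovaries from 12 to 39 weeks, and 26.9% against 48.7% for oocytes against PGCs. DESeq2 put 46.3% of the 39-week ovary calls higher, against 22.2%. The cause of these shifts was not tested. Calls lost under other settings included Mfn1 (Natural, E18.5 to 12 weeks, 0.22) and Opa1 (Natural, 12 to 39 weeks, 0.27) and Phb2 (IVF, 12 to 39 weeks, 0.29) with library totals, Sirt3 in both groups from E18.5 to 12 weeks (0.40 and 0.29 with RLE size factors), and Mfn2 in IVF ovaries from E18.5 to 12 weeks with the block (-0.24). In IVF ovaries from E18.5 to 12 weeks, 6 members were called with DESeq2 or library totals and 5 with at least 10 counts in every library, against 7. In Natural ovaries DESeq2 called 4 members from E18.5 to 12 weeks, against 3, and 3 from 12 to 39 weeks, against 2. The block also ended the E18.5 calls of Ulk1, Bnip3 and Phb and the 39-week call of Optn. Whether replicate numbers pair the samples is not stated in the labels. Same-numbered libraries deviated together (r above 0.1) in 0 of 4 pairs at E18.5, 2 of 4 at 12 weeks, 3 of 5 at 39 weeks, 3 of 4 in PGCs and 1 of 5 in cumulus cells. Their r reached 0.399 in the 39-week ovary and 0.536 in PGCs, so pairing there was not settled. The oocyte sets carry no numbers.

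Over the fits that left out 1 library, the ranges were as follows. IVF against Natural at E18.5 gave 0 to 2 members and 313 to 1973 genes, with Mfn1 -0.024 to 0.12 and Sirt3 -0.072 to 0.13. IVF against Natural in the 12-week ovary gave 1 to 5 genes, with Sirt3 -0.13 to 0.022. IVF against Natural in the 39-week ovary gave 0 to 123 genes, with Fis1 -0.087 to 0.13, Opa1 -0.059 to 0.072, Pink1 -0.15 to 0.040, Dnm1l -0.11 to 0.039 and Ppargc1a -0.079 to 0.78. IVF against Natural in PGCs had Mfn1 -0.55 to 0.063, Fis1 -0.17 to 0.12, Pink1 -0.020 to 0.31 and Sirt3 -0.22 to 0.0023. IVF against Natural in 12-week oocytes gave 1 to 8 genes, with Ppargc1a -0.26 to 0.72, Sirt3 -0.18 to 0.19, Phb2 -0.072 to 0.022, Opa1 -0.081 to 0.058, Fis1 -0.078 to 0.15 and Mfn2 -0.022 to 0.74. IVF against Natural in cumulus cells gave 1 to 5 genes, with Mfn2 -0.15 to 0.19, Fis1 -0.051 to 0.14, Sirt1 -0.26 to 0.15 and Dnm1l -0.10 to 0.045. Natural ovaries from E18.5 to 12 weeks gave 1 to 3 members, with Opa1 -0.13 to 0.051, Sirt1 -0.13 to 0.12 and Ppargc1a -0.36 to 0.10. Natural ovaries from 12 to 39 weeks gave 1 to 3 members, with Mfn1 -0.042 to 0.048, Fis1 -0.16 to 0.037 and Phb2 -0.066 to 0.095. IVF ovaries from E18.5 to 12 weeks gave 4 to 6 members, with Opa1 -0.083 to 0.048 and Sirt1 -0.025 to 0.12. IVF ovaries from 12 to 39 weeks gave 539 to 2606 genes and 1 to 2 members, with Sirt1 -0.037 to 0.12, Dnm1l -0.15 to 0.017, Fis1 -0.015 to 0.13 and Ppargc1a -0.25 to 0.57. The IVF effect at 12 weeks minus E18.5 gave 0 to 96 genes, with Opa1 -0.075 to 0.073, Sirt1 -0.064 to 0.18 and Sirt3 -0.17 to 0.0075. The IVF effect at 39 minus 12 weeks gave 80 to 1111 genes, with Mfn2 -0.047 to 0.099.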
